A study of Mus musculus with 2 samples.

Results

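The neuronal splicing and RNA-binding proteins described here are 10 genes of 4 families (*Rbfox1*, *Rbfox2*, *Rbfox3*, *Nova1*, *Nova2*, *Elavl2*, *Elavl3*, *Elavl4*, *Khdrbs2* and *Khdrbs3*), taken by name from the 32285 genes counted in both matrices. They were measured by single-cell RNA sequencing in cortex from 2 mouse embryos at embryonic day 16.5, called embryo 4 and embryo 5, with 1 library per embryo. Both embryos were labelled WT and were control animals of an *Eomes-Cre* line, so the series holds a single condition and no treatment was compared. The labels give the tissue as brain hemispheres and the dissected part as cortex, the supplement to the methods gives the C57BL/6J background, and a *Cre* allele is not stated for either library. The comparisons made were therefore between cell classes within the same embryos, from radial glial cells (RGC) through intermediate progenitor cells (IPC) to excitatory neurons, and between excitatory and GABAergic neurons.

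The RBFOX proteins bind UGCAUG in introns and set whether neighbouring exons are kept. NOVA proteins bind YCAY clusters and shape synaptic transcripts, the neuronal ELAVL proteins (also called HuB, HuC and HuD) bind U-rich stretches and stabilise or splice neuronal transcripts, and KHDRBS2 and KHDRBS3 (SLM1 and SLM2) belong to the STAR family and control exons of neurexin transcripts. Neurons of the cortex arise from radial glia, often through intermediate progenitors that express *Eomes*, and switch splicing programmes as they leave the cell cycle. GABAergic interneurons come from outside the cortex, from the medial and caudal ganglionic eminences (MGE, CGE), while the lateral eminence (LGE) gives rise mainly to striatal neurons.

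Embryo 4 held 12825 barcodes with 124318613 unique molecular identifiers (UMIs, 1 per captured RNA molecule) and embryo 5 held 12289 with 117679925, and 46 barcode sequences occurred in both. After filtering, 9932 and 10416 cells were kept, with medians of 10034.5 and 8825.5 UMIs. Of 31 clusters, 27 were named from marker genes and 4, with 870 cells, were not. The classes held 1265 and 1353 RGC-like, 941 and 989 IPC-like, 5747 and 6146 excitatory neuron-like and 1406 and 1307 GABAergic neuron-like cells in embryos 4 and 5. *Eomes* stood at 633 and 700 CPM (UMIs of a gene after scaling the class to a total of 1000000) in IPC-like cells, *Neurod6* at 1049 and 1057 in excitatory and *Gad2* at 632 and 735 in GABAergic neuron-like cells. The p-values rest on the spread between 2 embryos, with dispersions that edgeR shares across genes, and the main fit did not pair classes by embryo. The class names were rebuilt from markers and are not the authors' own.

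The 10 genes lie on 8 chromosomes of the mouse build GRCm38.p6, the build of mm10 that the submitters' notes name. *Rbfox1* spans 1527.7 kb (chr16:5884793-7412480), *Khdrbs2* 532.6 kb (chr1:32172602-32705224) and *Elavl3* only 37.1 kb (chr9:22015005-22052146). *Elavl2* (chr4:91211533-91400108) and *Elavl4* (chr4:110203737-110351939) share chromosome 4. Whether reads in introns were counted is not given in the sources used here, so levels are compared within a gene and not between genes. In a later annotation, *Rbfox1* overlaps 1700123O21Rik, *Rbfox3* overlaps Gm11749 and *Khdrbs3* overlaps Gm49422 on the same strand, and how reads shared with these were assigned is not known.

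*Elavl2*, *Elavl4* and *Rbfox3* were highest in IPC-like cells, and RefSeq promoter windows (250 bases before to 50 after the transcript start, minus strand, GRCm38.p6) are shown for them because they share this pattern. The letters CAGATG, the E-box form that NEUROG2 and NEUROD proteins bind, were searched on both strands (CATCTG on the other) and stand in capitals where present.
Elavl4, chr4:110287478-110287777: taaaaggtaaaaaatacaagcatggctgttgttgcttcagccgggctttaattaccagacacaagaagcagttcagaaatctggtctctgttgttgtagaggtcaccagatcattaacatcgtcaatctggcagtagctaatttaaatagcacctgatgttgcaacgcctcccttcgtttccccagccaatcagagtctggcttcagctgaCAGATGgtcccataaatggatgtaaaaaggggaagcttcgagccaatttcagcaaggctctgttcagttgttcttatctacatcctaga
Elavl2, chr4:91399935-91400234: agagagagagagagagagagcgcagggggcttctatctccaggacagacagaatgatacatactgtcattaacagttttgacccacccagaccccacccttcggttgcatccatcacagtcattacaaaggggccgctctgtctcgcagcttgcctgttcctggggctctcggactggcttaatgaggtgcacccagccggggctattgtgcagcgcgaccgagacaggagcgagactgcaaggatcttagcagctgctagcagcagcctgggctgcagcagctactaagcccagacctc
Rbfox3, chr11:118760992-118761291: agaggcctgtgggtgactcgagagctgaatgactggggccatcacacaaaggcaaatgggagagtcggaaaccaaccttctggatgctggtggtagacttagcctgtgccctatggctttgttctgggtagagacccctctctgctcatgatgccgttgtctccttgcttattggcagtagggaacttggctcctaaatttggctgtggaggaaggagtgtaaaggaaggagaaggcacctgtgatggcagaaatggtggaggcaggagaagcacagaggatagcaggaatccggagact
The letters were found in 3 of the 4 *Elavl4* windows, in none of the 6 *Elavl2* windows and not in the 1 *Rbfox3* window. The *Elavl4* windows chr4:110287478-110287777 and chr4:110287462-110287761 overlap and hold the same match. Several *Elavl2* windows overlap as well. Of the windows shown, that of *Elavl2* covers the outer start of its gene. Those of *Elavl4* and *Rbfox3* (gene at chr11:118489760-118911597) lie inside their genes. The outermost *Elavl4* window, chr4:110351862-110352161, holds no match. Of the 10 genes, 8 matched the promoter table and 1 of these held the letters, against 17.15% of 32851 windows of the same length and 19.23% of 27025 genes. A match is a string of letters and was not tested as a site.

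From RGC-like to IPC-like cells, 9 of the 10 genes rose (for *Khdrbs3* not with cells thinned to 2000 UMIs) and 1, *Nova1*, fell (edgeR quasi-likelihood test, Benjamini-Hochberg adjusted p under 0.05, as for every call below). Over all 14742 genes tested, 24.9% were called higher and 25.5% lower in IPC-like cells. From IPC-like to excitatory neuron-like cells, 6 rose and 4 fell (*Rbfox3*, *Nova1*, *Elavl2* and *Elavl4*), against 30.3% higher and 28.1% lower of 17022 genes. In GABAergic against excitatory neuron-like cells, 2 were higher (*Nova1* and *Nova2*) and 4 lower (*Rbfox1*, *Rbfox3*, *Khdrbs2* and *Khdrbs3*), against 17.1% and 18.5% of 17390 genes. The share of called genes that were higher depended on scaling: it was 51.9% in excitatory against IPC-like cells with TMM and 40.9% with library size alone, and 48.1% against 64.9% in GABAergic against excitatory neuron-like cells. Without TMM, the median log2 fold change over all genes tested moved to -0.13 and 0.14 in these comparisons and to -0.11 in deep-layer against immature neurons.

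**Figure D1:**
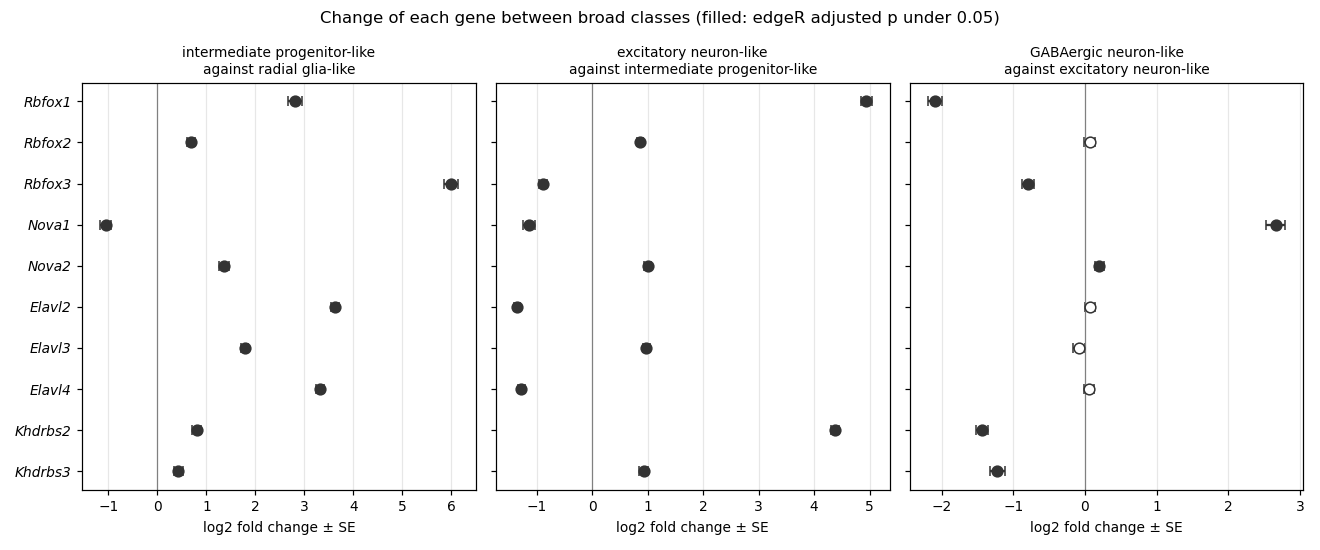
Log2 fold change (x axis, ± SE) of each gene (y axis) in 3 comparisons of broad classes, fitted over 2 embryos. Filled circles passed the edgeR test and open circles did not. Rbfox3 moved most in the first comparison (5.99) and Rbfox1 in the second (4.94), while Rbfox2 and the 3 Elavl genes lie near 0 in the third.

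*Rbfox1*, the family member expressed in neurons and muscle, showed the widest range. Its level was 34.6 and 24.9 CPM in RGC-like cells of embryos 4 and 5, 182 and 213 in IPC-like and 5375 and 5527 in excitatory neuron-like cells. It rose from RGC-like to IPC-like cells by a log2 fold change of 2.81 ± 0.15 (SE, adjusted p = 1.7e-06) and from there to excitatory neuron-like cells by 4.94 ± 0.10 (adjusted p = 8.1e-09). The first step rested in part on 1 cluster. Among the IPC-like clusters, *Rbfox1* stood at 627 and 684 CPM in the cycling cluster led by *Pclaf*, *Rrm2* and *Neil3*, and at 28.3 to 78.0 CPM in the other 2. With cycling clusters left out, the first step was 1.02 (adjusted p = 0.00019) and the second 6.62 (adjusted p = 2.9e-09). The RGC-like cluster that stayed in, led by *Adamts19*, *Wwtr1* and *Mt1*, still held 3205 and 2682 CPM of summed cycling markers. The IPC-like clusters that stayed in held 295 to 651 CPM, so this setting did not even out the cell cycle. With doublets kept, the second step was 4.05 (adjusted p = 8.5e-07). Summed markers of excitatory neurons were 1055 and 1056 CPM in the cycling IPC-like cluster. They were 1109 and 1103 CPM in the cluster led by *Kif26b*, *Eomes* and *Neurog2*, where *Rbfox1* was 77.4 and 78.0 CPM. Why *Rbfox1* differed between these clusters was not tested. The RGC-like levels lay below the 76.7 and 74.7 CPM of pericyte-like cells, a vascular class. Whether the UMIs in either class are background was not tested.

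Among the 3 named excitatory classes *Rbfox1* was lowest in immature and highest in deep-layer neurons. It was 2878 and 3026 CPM in immature, 5289 and 5602 in upper-layer and 10324 and 10178 in deep-layer neuron-like cells. These classes did not overlap, and the share of all genes for which they did not was not counted. Deep-layer exceeded immature neurons by a log2 fold change of 1.90 ± 0.08 (adjusted p = 7.6e-08), and upper-layer lay below deep-layer neurons by -0.98 ± 0.06 (adjusted p = 1.9e-06). The deep-layer cluster led by *Hs3st4*, *Rgs6* and *Prickle1* held 11672 and 11520 CPM, and the one led by *Opcml*, *Rasgrf1* and *Dync1i1* held 8511 and 8704. A cluster led by *Il1rapl2*, *Ccbe1* and *Gm49678* held 8254 and 8451. It belonged to the 1757 and 1947 excitatory cells given no finer name, which together held 4766 and 5053 CPM. Immature clusters ran from 1598 and 1619 to 4023 and 4185 CPM. In GABAergic neuron-like cells the level was 1445 and 1354, a log2 fold change of -2.09 ± 0.10 against excitatory neurons (adjusted p = 3.0e-06). MGE interneuron-like cells (1723 and 1863 CPM) exceeded CGE interneuron-like cells (334 and 249.7) by 2.69 ± 0.15 (adjusted p = 2.9e-07), the largest difference between these 2 classes among the 10 genes. It was 1.91 with doublets kept and 4.09 at resolution 2, the ends of its range over the alternatives. The 8 excitatory markers summed to 1424 and 1347 CPM in MGE and 401 and 349 in CGE cells, with none at 0, but *Neurod6*, which defines excitatory neurons, was 33.7 and 17.0 CPM in MGE and 35.9 and 15.1 in CGE cells.

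*Rbfox2*, the most widely expressed member of the family, varied least among the RBFOX genes. It stood at 205 and 225 CPM in RGC-like, 328 and 329 in IPC-like and 533 and 543 in excitatory neuron-like cells. Both steps passed the test, at 0.68 ± 0.08 (adjusted p = 0.00014) and 0.87 ± 0.06 (adjusted p = 3.4e-06). GABAergic neuron-like cells (609.9 and 624.5 CPM) differed from excitatory by 0.07 ± 0.08, which missed the threshold (adjusted p = 0.55). Pericyte-like cells held 302 and 265 CPM, above the RGC-like cells of both embryos. Within neurons, the deep-layer level exceeded the immature one by 0.18 ± 0.06 (adjusted p = 0.035), a call lost without a low-count filter, without TMM and with a limit of 500 genes per cell.

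*Rbfox3* encodes NeuN, the nuclear antigen used to mark postmitotic neurons. In RGC-like cells it had 100 and 137 UMIs, or 7.04 and 9.78 CPM, against 6.82 and 2.26 CPM (4 and 1 UMIs) in pericyte-like cells. In IPC-like cells it reached 492 and 526 CPM, higher than in any of the other 9 classes compared by level. The rise of 5.99 ± 0.14 (adjusted p = 3.7e-08) was the largest of the 10 genes at this step, and was 4.95 with doublets kept. It then fell to 234 and 262 CPM in excitatory neuron-like cells, a log2 fold change of -0.88 ± 0.08 (adjusted p = 1.6e-05). The cluster led by *Kif26b*, *Eomes* and *Neurog2* held 690.0 and 793.5 CPM, against 286 and 325 in the cluster led by *Neurog2*, *Gadd45g* and *Smoc1* and 277 and 274 in the cycling one. Summed markers of immature excitatory neurons were 3064 and 3026 CPM in the first of these clusters, 272 and 243 in the second and 1964 and 2008 in the cycling one. Summed cycling markers were 337 and 295 CPM in the first cluster. Whether it holds newborn neurons was not tested. Immature neurons were at 369 and 439.9 CPM, upper-layer neurons at 182 and 200.5 and deep-layer neurons at 123 and 131, an order kept in both embryos. Deep-layer lay below immature neurons by -1.57 ± 0.09 (adjusted p = 1.0e-06), the opposite direction to *Rbfox1*.

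**Figure D2:**
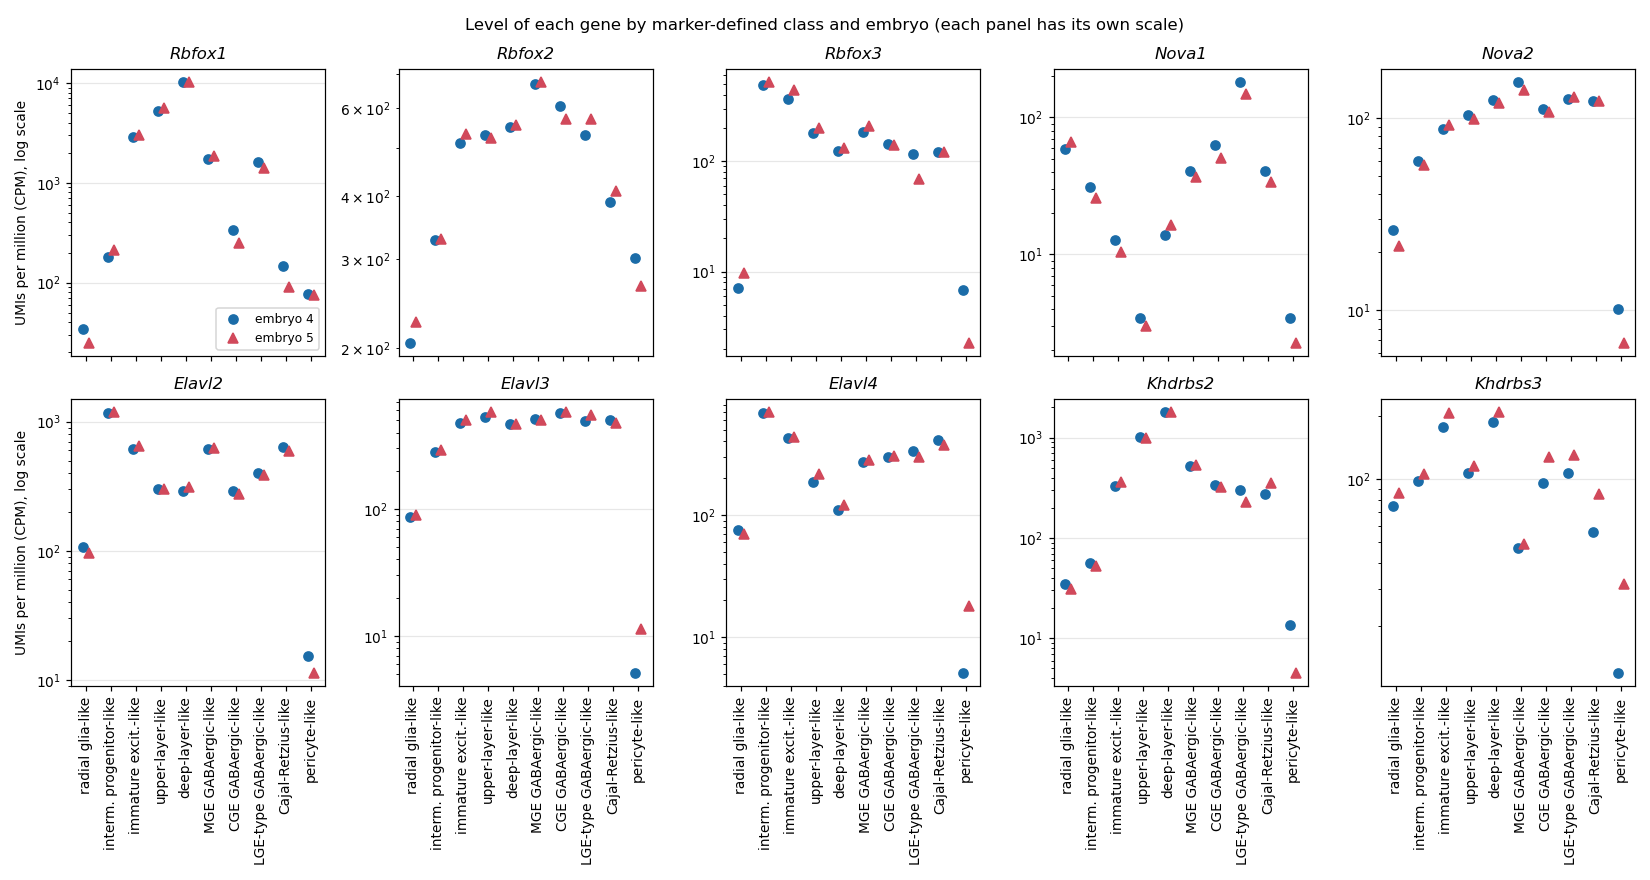
Level of each gene in CPM (y axis, log scale, own range in each panel) in 10 marker-defined classes (x axis), with circles for embryo 4 and triangles for embryo 5. Rbfox1 and Khdrbs2 peak in deep-layer-like cells, Rbfox3, Elavl2 and Elavl4 in intermediate progenitor-like cells, and Nova1 in LGE-type cells.

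The 3 neuronal ELAVL genes rose together into IPC-like cells and then parted. *Elavl2* (HuB) went from 107 and 95.8 CPM in RGC-like to 1176 and 1198 in IPC-like cells, a log2 fold change of 3.62 ± 0.08 (adjusted p = 3.2e-08). *Elavl4* (HuD) went from 75.7 and 70.2 to 685 and 703 CPM, a change of 3.32 ± 0.08 (adjusted p = 3.7e-08). *Elavl3* (HuC) went from 86.2 and 88.9 to 282 and 289 CPM, a change of 1.78 ± 0.07 (adjusted p = 4.7e-07). At the next step *Elavl2* fell to 419 and 418 CPM (-1.35 ± 0.06, adjusted p = 2.3e-07) and *Elavl4* to 254 and 261 (-1.27 ± 0.06, adjusted p = 3.8e-07). *Elavl3* rose to 497 and 515 CPM (0.98 ± 0.06, adjusted p = 2.1e-06). The embryos of the RGC-like, IPC-like and excitatory classes did not overlap for any of the 3 genes. The share of all genes without such overlap was not counted.

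Within the IPC-like class, *Elavl2* was 1454 and 1565 CPM in the cluster led by *Kif26b*, *Eomes* and *Neurog2*, 899 and 945 in that led by *Neurog2*, *Gadd45g* and *Smoc1*, and 860.3 and 822 in the cycling cluster. *Elavl4* followed the same order in embryo 4 and embryo 5, from 857 and 912 through 526 and 546 to 475 and 504 CPM. The first of these clusters also held the most immature neuron markers of the IPC-like clusters, as given above for *Rbfox3*. With cycling clusters left out, the RGC-to-IPC steps were 3.42 for *Elavl2* (adjusted p = 5.6e-09) and 3.01 for *Elavl4* (adjusted p = 5.9e-09). The RGC-like cluster that stayed in still held cycling markers, as given above for *Rbfox1*.

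Between neuron classes the ELAVL genes differed in where they stayed high. *Elavl4* fell from 427 and 438 CPM in immature to 110.4 and 119.9 in deep-layer neuron-like cells (-1.81 ± 0.07, adjusted p = 5.2e-08), and *Elavl2* from 618 and 643 to 289.6 and 313 (-0.96 ± 0.07, adjusted p = 3.4e-06). *Elavl3* stood at 479 and 502 in immature and 463 and 467 in deep-layer neurons, a difference of 0.02 ± 0.06 after TMM scaling that missed the threshold (adjusted p = 0.76) and was -0.077 without TMM. Upper-layer neurons held more *Elavl4* than deep-layer neurons, with 188 and 217 CPM and a log2 fold change of 0.75 ± 0.08 (adjusted p = 9.6e-05). In GABAergic against excitatory neuron-like cells none of the 3 passed, with log2 fold changes of 0.07 ± 0.07 for *Elavl2*, -0.08 ± 0.08 for *Elavl3* and 0.06 ± 0.07 for *Elavl4*. MGE cells held 611 and 625 CPM of *Elavl2* against 290.0 and 278 in CGE cells, a difference of 1.19 ± 0.11 (adjusted p = 1.7e-05), while *Elavl3* (-0.13 ± 0.11) and *Elavl4* (-0.07 ± 0.11) did not pass.

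The 2 NOVA genes ran in opposite directions. *Nova1* was 58.5 and 65.7 CPM in RGC-like, 30.9 and 25.8 in IPC-like and 12.03 and 11.3 in excitatory neuron-like cells. It fell at both steps, by a log2 fold change of -1.05 ± 0.11 (adjusted p = 0.00011) and -1.13 ± 0.11 (adjusted p = 3.1e-05). *Nova2* rose at both, from 26.3 and 21.5 through 59.6 and 57.0 to 106 and 104 CPM, by 1.36 ± 0.11 (adjusted p = 1.8e-05) and 1.004 ± 0.07 (adjusted p = 3.3e-06).

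*Nova1* had the largest excess in GABAergic over excitatory neuron-like cells of the 10 genes, at 93.8 and 67.5 against 12.03 and 11.3 CPM, a log2 fold change of 2.66 ± 0.14 (adjusted p = 3.8e-06). *Nova2*, at 136 and 129 against 106 and 104 CPM, passed narrowly (0.20 ± 0.07, adjusted p = 0.049) and missed the threshold under 8 of the alternatives tried. The embryos differed in the make-up of the GABAergic class, with 398 and 269 LGE-type cells, in which *Nova1* was 182 and 149 CPM. In MGE cells it was 40.5 and 36.6 and in CGE cells 62.9 and 50.6 (-0.48 ± 0.15, adjusted p = 0.046, a call lost under 7 alternatives). In upper-layer neurons *Nova1* had only 24 and 23 UMIs, or 3.45 and 2.996 CPM, close to the 3.41 and 2.26 CPM (2 and 1 UMIs) of pericyte-like cells. Deep-layer neurons held 13.8 and 16.3 CPM, and upper-layer lay below them by -2.28 ± 0.20 (adjusted p = 1.5e-05).

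*Khdrbs2* (SLM1) followed *Rbfox1*. It was 34.9 and 30.7 CPM in RGC-like, 56.5 and 52.3 in IPC-like and 1013 and 1015 in excitatory neuron-like cells, so that the second step (4.37 ± 0.07, adjusted p = 7.1e-09) far exceeded the first (0.80 ± 0.10, adjusted p = 0.00020). Deep-layer neurons held 1820.1 and 1815 CPM, immature neurons 329 and 363 and upper-layer neurons 1024 and 1001. The excitatory cluster led by *Il1rapl2*, *Ccbe1* and *Gm49678*, given no finer name, held 1702 and 1454 CPM. Deep-layer exceeded immature neurons by 2.50 ± 0.08 (adjusted p = 1.3e-08) and upper-layer fell short of deep-layer by -0.91 ± 0.06 (adjusted p = 1.2e-06), or -1.59 with the listed genes allowed in clustering. GABAergic neuron-like cells were lower than excitatory, at 414 and 406 CPM (-1.44 ± 0.08, adjusted p = 5.8e-06). MGE cells held 521 and 532 CPM against 340.0 and 322 in CGE cells (0.73 ± 0.11, adjusted p = 0.00061). That difference turned to -0.72 (adjusted p = 0.0058) when cells were clustered at resolution 2, so its direction depends on which cells carry the names.

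*Khdrbs3* (SLM2) rose less than *Khdrbs2* along the same path. It was 74.3 and 85.7 CPM in RGC-like, 98.6 and 106 in IPC-like and 166 and 186 in excitatory neuron-like cells, with steps of 0.43 ± 0.10 (adjusted p = 0.0064) and 0.93 ± 0.08 (adjusted p = 1.8e-05). The first call was lost with cells thinned to 2000 UMIs (0.31, adjusted p = 0.11). Deep-layer (188 and 210.3) and immature neurons (178 and 208) overlapped, and their difference of 0.15 ± 0.09 missed the threshold (adjusted p = 0.20) but passed with the embryo as a block (adjusted p = 0.0098). Upper-layer neurons were lower, at 107 and 115 CPM (-0.91 ± 0.08, adjusted p = 1.6e-05). GABAergic neuron-like cells held 76.5 and 88.4 CPM, below excitatory neurons by -1.22 ± 0.10 (adjusted p = 6.7e-05). MGE cells, at 47.1 and 49.0 CPM, lay below CGE cells at 95.9 and 128 by -1.17 ± 0.15 (adjusted p = 0.00026), a call lost at resolution 2 (-0.35, adjusted p = 0.16).

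Within neurons, the 10 genes split by stage, layer and origin. From immature to deep-layer neuron-like cells 5 rose (*Rbfox1*, *Rbfox2*, *Nova1*, *Nova2*, *Khdrbs2*) and 3 fell (*Rbfox3*, *Elavl2*, *Elavl4*), against 28.2% and 26.7% of 14962 genes tested. In upper-layer against deep-layer cells 3 were higher (*Rbfox3*, *Elavl3*, *Elavl4*) and 5 lower (*Rbfox1*, *Nova1*, *Nova2*, *Khdrbs2*, *Khdrbs3*), against 18.9% and 20.8% of 13708. In MGE against CGE interneuron-like cells 5 were higher (*Rbfox1*, *Rbfox3*, *Nova2*, *Elavl2*, *Khdrbs2*) and 2 lower (*Nova1*, *Khdrbs3*), against 7.63% and 8.22% of 11902. Of these, *Rbfox3* lost its call with doublets kept and at resolution 2 (adjusted p = 0.16 and 0.21) and *Nova2* with DESeq2 (adjusted p = 0.091), and the calls of *Nova1*, *Khdrbs2* and *Khdrbs3* depended on the alternatives given above. The comparisons along the path share the IPC-like or excitatory sums, and the first 2 here share the deep-layer sums. *Rbfox2*, which missed the threshold in upper-layer against deep-layer (-0.13 ± 0.06) and MGE against CGE cells (0.26 ± 0.11), passed in both with the embryo as a block (adjusted p = 0.0020 and 0.019). The call of *Nova1* in deep-layer against immature cells (0.47 ± 0.14, adjusted p = 0.017) and that of *Elavl3* in upper-layer against deep-layer cells (0.20 ± 0.06, adjusted p = 0.036) were each lost under 4 alternatives.

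**Figure D3:**
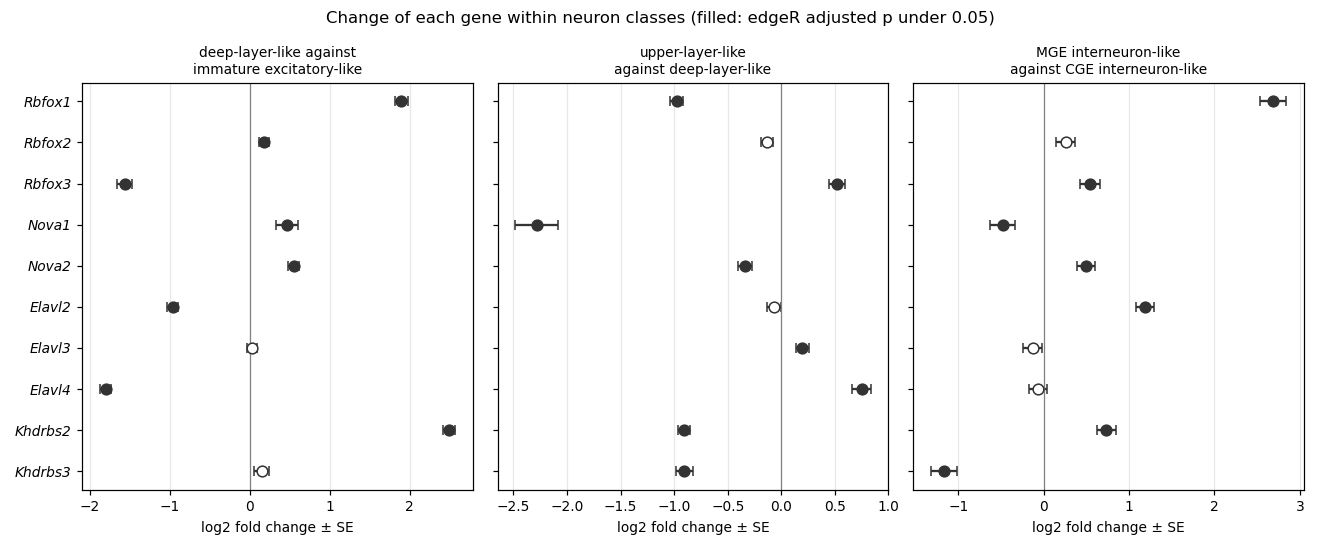
Log2 fold change (x axis, ± SE, each panel with its own range) of each gene (y axis) in 3 comparisons within neurons, fitted over 2 embryos. Filled circles passed the edgeR test. Khdrbs2 (2.50) and Elavl4 (-1.81) mark the ends of the first panel, Nova1 (-2.28) is lowest in the second and Rbfox1 (2.69) highest in the third.

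The share of cells with at least 1 UMI was counted after each cell was thinned to 2000 UMIs, since median depth ran from 4344.5 UMIs (CGE, embryo 4) to 15397 (Cajal-Retzius, embryo 4). *Rbfox1* was found in 100% and 99.6% of deep-layer cells, 65.3% and 67.4% of MGE, 30.5% and 23.0% of CGE and 14.6% and 15.6% of IPC-like cells. In RGC-like cells the share was 7.24% (exact 95% interval 5.86 to 8.83) and 4.79% (3.71 to 6.07). In pericyte-like cells it was 5.88% of 51 cells (1.23 to 16.2) and 4.55% of 44 (0.555 to 15.5). Median depth was similar, at 11025 and 9887 UMIs in RGC-like and 10549 and 10119 in pericyte-like cells. So few pericyte-like cells cannot tell a like share from a lower or higher one. Unthinned, the RGC-like shares were 27.1% and 18.3%. *Rbfox3* was found in 52.0% and 53.0% of IPC-like cells and in 1.21% and 0.972% of RGC-like cells, against 1.96% of pericyte-like cells in embryo 4 and 0 of 44 in embryo 5 (exact upper limit 8.04%). *Elavl2* was found in 79.9% and 78.1% of IPC-like cells, 15.8% and 17.5% of RGC-like cells and 1.96% and 2.27% of pericyte-like cells. These intervals and shares cover counting error only.

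**Figure D4:**
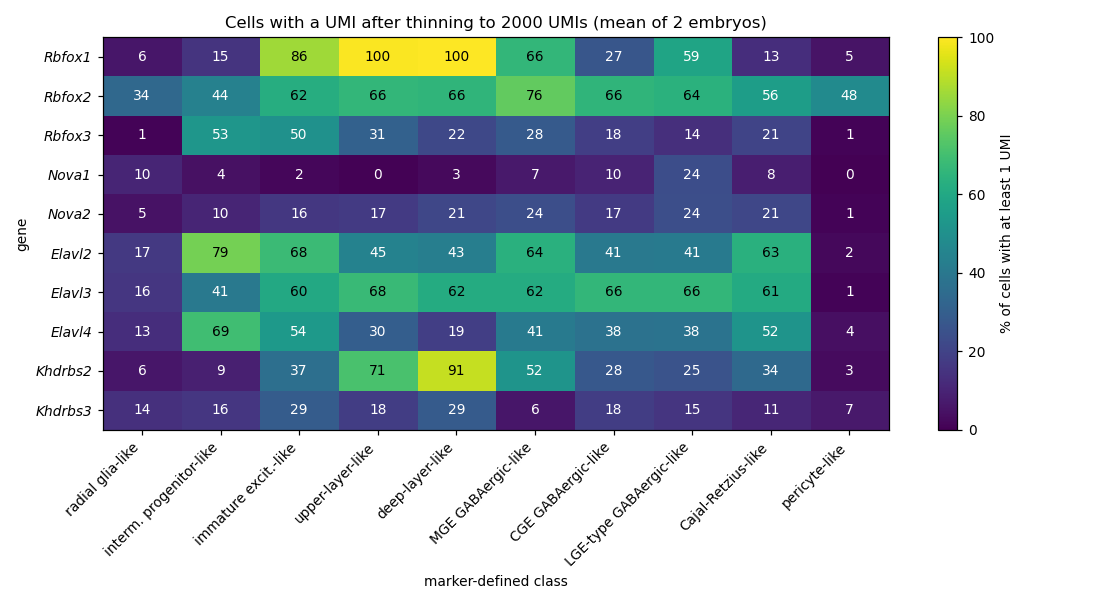
Share of cells with at least 1 UMI (%, colour and number, mean of 2 embryos) for each gene (rows) and class (columns), each cell thinned to 2000 UMIs. Rbfox1 is found in nearly every upper-layer and deep-layer-like cell, Elavl2 in 79% of intermediate progenitor-like cells and Nova1 in at most 24% of any class.

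The number of the 10 genes found in a thinned cell rose along the same path. It averaged 1.20 and 1.24 in RGC-like, 3.42 and 3.37 in IPC-like, 4.51 and 4.60 in excitatory and 3.85 and 3.90 in GABAergic neuron-like cells, against 0.765 and 0.682 in pericyte-like cells. None of the 10 was found in 30.3% and 24.7% of RGC-like cells, and in 0.0874% and 0.0163% of excitatory neuron-like cells. The counts in embryos 4 and 5 differed by less than the gaps between these classes.

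Cajal-Retzius-like cells, the early neurons of the cortical surface that make reelin, were few (65 and 66). *Elavl2* (641 and 593 CPM) overlapped the level of immature excitatory neurons, *Elavl4* (413 and 377) lay just below it and *Rbfox1* was only 147 and 89.4 CPM. *Rbfox2* was lower there (390.4 and 410) than in any excitatory or GABAergic class named. The classes were not tested against each other.

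Ordered by level over 10 classes, several neighbours could not be separated. Excitatory cells given no finer name were not among these classes. For *Elavl3* each of the first 5 places (CGE, upper-layer, LGE-type, MGE and immature cells) overlapped the next, the last of them Cajal-Retzius-like cells. All 10 places of *Rbfox1* were separate. With 2 embryos, places could separate at small gaps, as LGE-type and Cajal-Retzius-like cells did for *Nova2* (1.03-fold). How often places separate over all genes was not counted. Immature neurons, MGE and Cajal-Retzius-like cells overlapped for *Elavl2*, and immature, CGE, Cajal-Retzius and LGE-type cells for *Khdrbs2*. Within a family the top class could differ, as it did for *Nova1* (LGE-type) and *Nova2* (MGE).

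As a description over 10 classes that share 2 libraries, the genes with the most similar log2 levels were taken by Pearson's r. *Elavl2* and *Elavl4* were among each other's 3 most similar genes (r = 0.97), and both lists held *Akirin2* and *Miat*. *Rbfox3* was closest to *Kdm1a* (r = 0.96), *Mgat5b* and *Srrm4*, the last a splicing regulator of neuronal microexons. *Nova2* was closest to *Rufy3* (r = 0.99), *Elavl3* to *Samd14* (r = 0.99) and *Rbfox1* to *Klhl29* (r = 0.97). *Rbfox2* was closest to *Zfp57* (r = 0.98), *Khdrbs3* to *Sort1* (r = 0.93) and *Nova1* to *Ntng1* (r = 0.91). *Nova1* and *Rbfox1* had an r of -0.22.

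Other regulators of alternative splicing were mixed along the path. Of 17, 8 were higher and 6 lower in IPC-like than RGC-like cells, against 24.9% and 25.5% of all genes tested. The median log2 fold change was 0.09, against 1.57 for the 10 genes and 0.01 for all genes tested. *Srrm4* rose most, from 20.3 and 17.7 to 638 and 720 CPM (5.23 ± 0.11, adjusted p = 3.2e-08). *Srrm3* (3.60) and *Celf3* (2.30) also rose, and *Qk*, a glial and progenitor regulator, fell from 945 and 994 to 279 and 279 CPM (-1.72 ± 0.07, adjusted p = 4.3e-07). In excitatory against IPC-like cells 6 were higher and 5 lower, against 30.3% and 28.1% of all genes. *Mbnl3* (-3.68), *Celf5* (3.06), *Celf6* (2.89) and *Celf4* (2.84) led. In GABAergic against excitatory neuron-like cells 8 were higher and 2 lower, against 17.1% and 18.5% of all genes. *Qk* (2.10), *Celf4* (1.29), *Celf2* (-1.22) and *Ptbp3* (0.91) moved most.

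Of 24 proteins of translation and RNA localisation, 22 were tested in IPC-like against RGC-like cells. There 9 were higher and 4 lower, against 24.9% and 25.5% of all genes tested, led by *Cpeb4* (1.75), *Cpeb3* (1.24), *Fxr2* (0.89) and *Tia1* (0.66). In excitatory against IPC-like cells 7 of 23 tested were higher and 10 lower, against 30.3% and 28.1% of all genes. *Lin28b* (3.54), *Cpeb2* (1.98), *Cpeb1* (1.88) and *Cpeb3* (1.87) led. In GABAergic against excitatory neuron-like cells 5 of 23 tested were higher and 3 lower, against 17.1% and 18.5% of all genes. The same 4 genes moved most, by 1.49, 0.93, 1.03 and 0.91.

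The 34 core spliceosome and SR proteins were more often called lower than higher in the same 3 comparisons. In IPC-like against RGC-like cells 2 were higher and 12 lower, against 24.9% and 25.5% of all genes tested (median -0.15), led by *Srsf9* (-0.79), *Srsf2* (-0.58), *Eftud2* (-0.39) and *Prpf4* (-0.39). In excitatory against IPC-like cells none was higher and 26 were lower, against 30.3% and 28.1% of all genes (median -0.36, against 0.90 for the 10 genes and 0.02 for all genes tested). *Srsf6* (-0.88), *Srsf9* (-0.83), *Snrpb* (-0.69) and *Srsf1* (-0.60) fell most. In GABAergic against excitatory neuron-like cells none was higher and 5 were lower, against 17.1% and 18.5% of all genes, led by *Snrpd2* (-0.41), *Snrpe* (-0.39), *Snrpf* (-0.31) and *Prpf19* (-0.29).

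**Figure D5:**
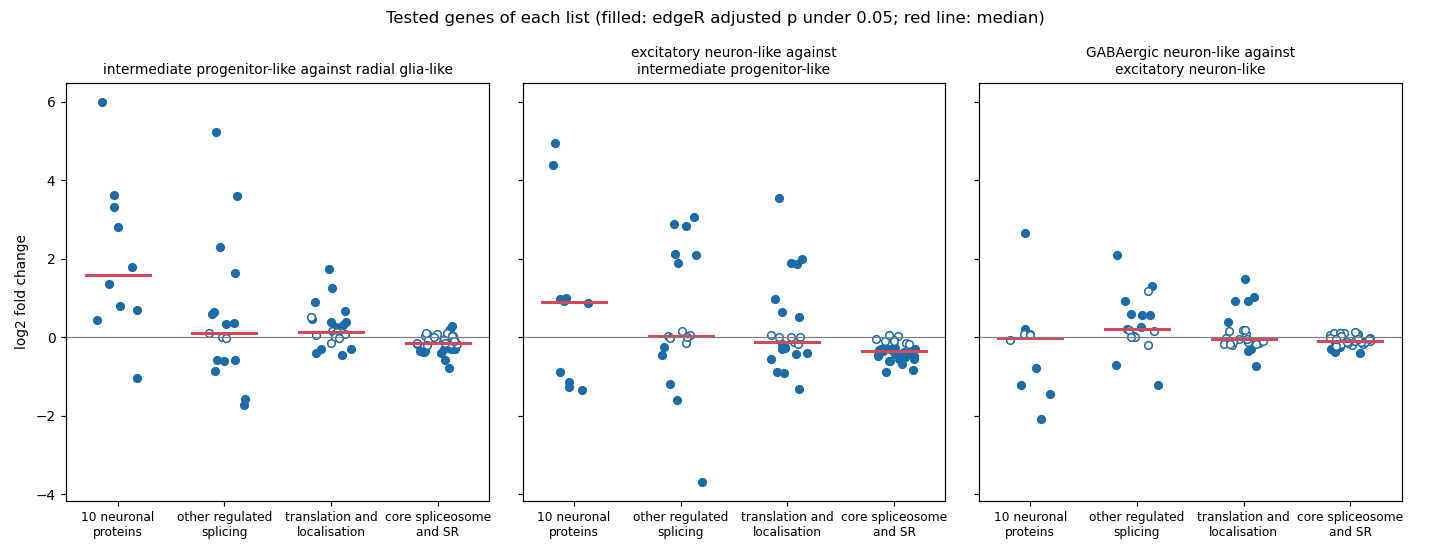
Log2 fold change (y axis) of the tested genes of 4 lists (x axis) in 3 comparisons, 1 point per gene, with a red line at each median. Filled points passed the edgeR test. The 10 neuronal genes have medians of 1.57 and 0.90 in the first 2 panels, while the core spliceosome genes lie mostly below 0.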

How the data were processed

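The authors dissociated cortex with papain, prepared 10x Genomics 3′ v3.1 libraries and counted UMIs with Cell Ranger (7.0.0 in the processing notes, 7.1.0 in the file headers) on mm10. The deposited matrices hold raw counts per gene and barcode. The 10 genes and the 3 other lists were chosen with earlier results of these data known.

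Barcodes with fewer than 1000 detected genes (1772 and 765 in embryos 4 and 5) or over 10% mitochondrial counts (174 and 56) were left out, as were 947 and 1052 doublets, the highest scores after Scrublet's procedure at 0.8% per 1000 cells. Cells were clustered on 2000 variable genes, 30 principal components and 20 neighbours (Python 3.11.15 with scanpy 1.11.5 and scikit-learn 1.9.0; Leiden by leidenalg 0.10.2 at resolution 1), with the 85 listed genes kept out. Clusters were named from marker CPM; the scoring rule was set after the clusters were seen. OPC-like, choroid plexus-like, erythroid-like and subplate-like markers named no cluster. Microglia-like (23 and 2), endothelial-like (12 and 8) and fibroblast-like cells (0 and 53) were too few for comparison.

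UMIs of each class were added up within an embryo, and the sums were tested with edgeR 4.0.16 in R 4.3.3 (filterByExpr, TMM, quasi-likelihood, Benjamini-Hochberg threshold 0.05), each comparison fitted alone. SE is the log2 fold change divided by the square root of F. The sums compared come from the same animals, so the numbers pair: deviations from the class means correlated by 0.174 to 0.263 over genes. DESeq2 1.42.0 was an alternative. On simulated counts of the 6 comparisons, 71.5% (GABAergic against excitatory) to 89% of changed genes were recovered and 1.38% to 6.32% of calls were false. Far fewer genes were changed there than were called in the data. All changed by more than the smallest folds called, and the simulated sums did not pair. These rates therefore do not carry over to the calls above. All 10 genes passed the filter on low counts in every comparison. Similar genes were ranked over log2(CPM + 10), among genes reaching 50 CPM in a class. In each of the first 3 comparisons, up to 4 called genes of largest change are named from each other list. The gene most similar to *Khdrbs2* is not reported here.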

Additional observations from a re-analysis of the deposited data

Results flagged for a closer look

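LGE-type GABAergic-like cells entered none of the comparisons as a class of their own. *Nova1* stood there at 182 CPM in embryo 4 and 149 in embryo 5, a mean of 166, above its level in both embryos in every class compared, the highest of which was 93.8 CPM in GABAergic neuron-like cells, a class that includes these cells. After thinning to 2000 UMIs, 25.1% and 22.0% of the LGE-type cells held a *Nova1* UMI, against 7.09% and 6.20% of MGE cells and 0 of 51 and 0 of 44 pericyte-like cells (exact 95% upper limits of 6.98% and 8.04%). The median depth was 8220 and 7105 UMIs in LGE-type, 6393.5 and 6387 in MGE and 10549 and 10119 in pericyte-like cells. The difference between LGE-type and the other GABAergic classes was not tested.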

How the results depend on the processing

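Over the 6 comparisons and 10 genes, 893 of 950 recomputed log2 fold changes kept their direction and, where tested, their side of the threshold, 31 lost the call, 15 gained it, 10 changed sign and 1 moved with no test (*Elavl3* in deep-layer against immature neurons, -0.0026 without embryo 4). The number of genes called higher in GABAergic than in excitatory neuron-like cells (2) fell to 1 with DESeq2's size factors in edgeR, 1 with DESeq2, 1 without a low-count filter, 1 in a fit over all named classes, 1 with a limit of 500 genes, 1 with doublets kept and 1 after thinning, and rose to 4 without TMM, an alternative chosen after seeing the data. The number called lower in MGE than in CGE cells (2) fell to 1 with DESeq2, without the filter, in the fit over all classes, with doublets kept, with listed genes allowed in clustering and after thinning, and the number called higher (5) to 3 at resolution 2. The cause was not tested. Of the sign changes, 9 were in values that missed the threshold. In GABAergic against excitatory neuron-like cells these were *Elavl2* (-0.024) and *Elavl4* (-0.022) after thinning and *Elavl3* (0.049) without TMM. In deep-layer against immature neurons *Elavl3* turned to -0.022 without the filter, -0.077 without TMM and -0.016 with at most 5% mitochondrial counts. In upper-layer against deep-layer neurons *Elavl2* turned to 0.14 with doublets kept, 0.064 at resolution 0.5 and 0.16 with listed genes in clustering. The tenth was *Khdrbs2* in MGE against CGE cells at resolution 2 (-0.72). Resolution 0.5 gave no CGE class, so that comparison has no value there. With the embryo as replicate block, 3 calls were gained (*Khdrbs3* in deep-layer against immature, 0.15, and *Rbfox2* in upper-layer against deep-layer, -0.13, and in MGE against CGE cells, 0.26), and no other call changed. With 1 embryo left out there was no test, and every called fold change kept its sign.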
